A study of Mus musculus with 19 samples.

Results

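The genes of MHC class I presentation and peptide loading were followed in retinal microglia, the resident macrophages of the retina, with and without laser-induced choroidal neovascularization (CNV). The set was taken by gene symbol and holds 10 of the 27299 genes in the deposited table, and all 10 were measured: *H2-K1*, *H2-D1*, *H2-T23*, *B2m*, *Tap1*, *Tap2*, *Tapbp*, *Nlrc5*, *Psmb8* and *Psmb9*. Bulk RNA-seq was available for 6 laser samples, taken 3 days after focal laser burns to the retina, and for 6 unlasered control samples. The labels give C57BL/6J mice of 8 weeks for both groups, whereas the study's methods name *Cx3cr1* GFP/+ mice on that background for the sequencing, which would leave a single working copy of *Cx3cr1* in laser and control cells alike. Cells were sorted as CD45+CD11b+CX3CR1+Ly6C-Ly6G- by the labels and as CD45 lo with the same other markers by the study's methods, a narrower gate that would leave out cells with high CD45. How many mice a sample holds is not given in the sources used here, so p-values measure the spread between these samples, which may in part be technical.

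MHC class I molecules show peptides from inside a cell to CD8+ T cells. Proteins are cut by the proteasome, in which interferon-inducible subunits can replace the constitutive ones. The peptides are pumped into the endoplasmic reticulum by the TAP transporter, loaded onto a heavy chain paired with beta-2 microglobulin with the help of tapasin, and carried to the surface. Interferons raise many of these genes, and NLRC5 is the coactivator that works at class I promoters. Resting microglia of the central nervous system are known for low surface class I, which rises in inflammation.

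Of the 10 genes, 8 lie in the MHC on chromosome 17. In the Gencode M21 annotation of GRCm38, *Tapbp* spans chr17:33915899-33929292, *H2-K1* chr17:33996017-34000347, *H2-D1* chr17:35262730-35267499 and *H2-T23* chr17:36029773-36032855. *Psmb9* (chr17:34181987-34187764), *Tap1* (chr17:34187553-34197225), *Psmb8* (chr17:34197721-34201454) and *Tap2* (chr17:34203527-34216321) stand side by side. *B2m* lies at chr2:122147686-122153083 and *Nlrc5* at chr8:94434356-94527272. Reads were counted over exons, UTRs included.

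The class I genes did not move as a block. Adjusted p-values below are from limma's moderated test over all 27299 genes with Benjamini-Hochberg correction (padj), and log2 fold changes (log2FC) are laser minus control on the log2(normalized count + 1) scale, where a normalized count is the reads of a gene divided by the sample's size factor. Of the 10 genes, 5 were higher in laser samples at padj below 0.05 (*Tap1*, *H2-K1*, *Nlrc5*, *H2-D1* and *Psmb9*), against 8.29% of all genes. Leaving out 1 sample at a time, 2 to 5 were called higher, *Tap1* and *H2-K1* each time. None was lower by limma, where 4.57% of all genes were, 0 were lower at an unadjusted p below 0.05, and 0 by edgeR or DESeq2. None passed the study's threshold for a differentially expressed gene (absolute log2FC above 1.5 and padj below 0.05), which 3.91% of all genes passed in the higher direction, and edgeR and DESeq2 also called 0. In none of the 10 genes did all 6 laser samples lie above all 6 controls, as they did in 4.64% of all genes. The median log2FC of the 10 genes was 0.27, and 7 of them were above 0, beside a median of 0.15 over all genes. Among the 6608 genes with a mean level at least that of *Nlrc5*, the lowest member, the median was 0.06 and 18.1% were called higher.

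**Figure D1:**
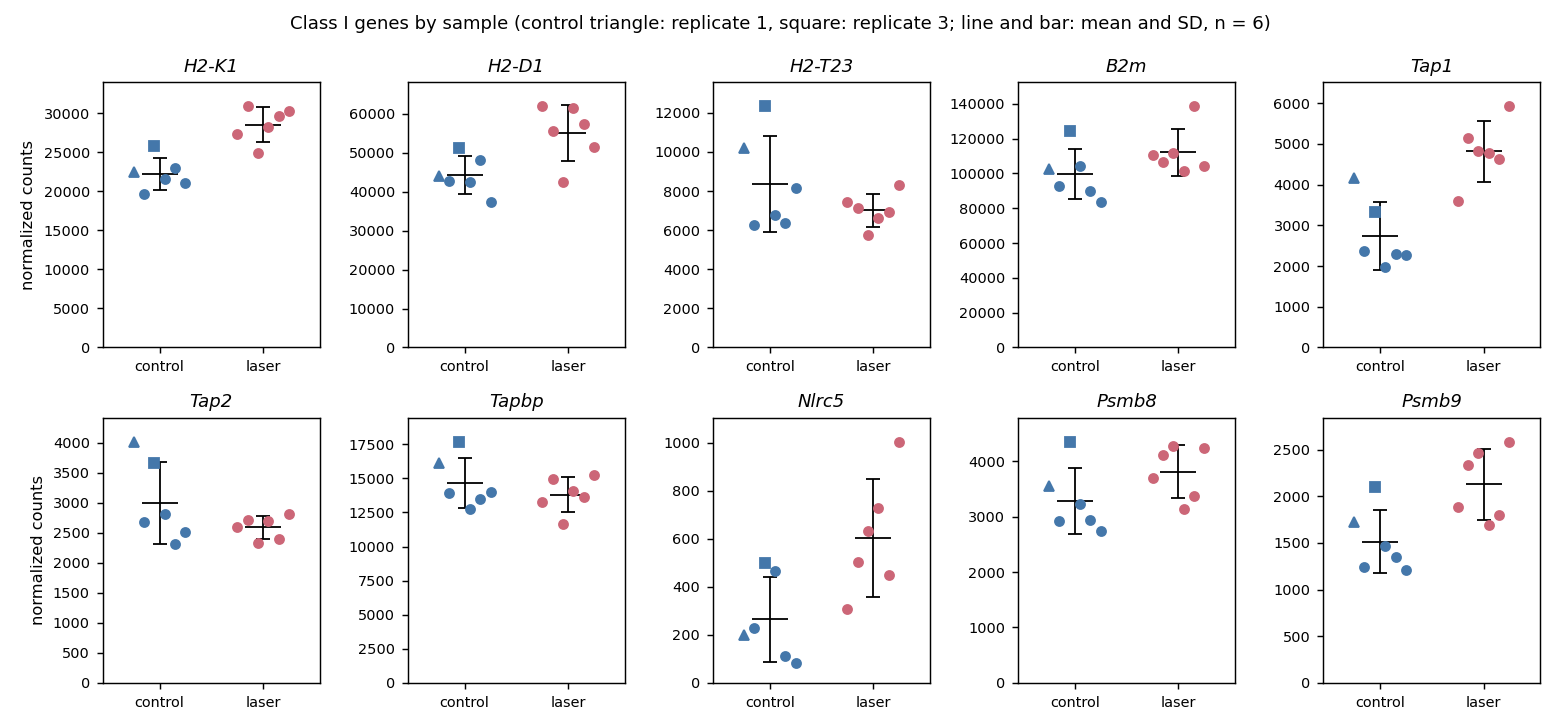
Normalized counts (y axes, from 0) of each class I gene in the 6 control and 6 laser samples (points), with mean and SD as line and bar, where among controls the triangle is replicate 1 and the square replicate 3. Laser samples sit higher for *H2-K1* and *Tap1* with a small overlap, while the groups overlap widely for *H2-T23* and *Tapbp*, and *Tap2* is no higher in laser.

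Depth and sample make-up differed between the groups. Control samples held 10963178 to 22335233 reads on genes and laser samples 23532260 to 29523018, so every laser sample was deeper than every control. In both groups the 6 microglia markers (*P2ry12*, *Tmem119*, *Cx3cr1*, *Csf1r*, *Siglech*, *Sall1*) had the highest sum of the cell type marker lists. Their sum was 776988 to 840085 normalized counts in control and 389552 to 621487 in laser samples, with 5 of 6 markers lower after laser. The 6 monocyte markers summed to 35.1 to 293 in control and 386 to 2669 in laser samples, with 4 of 6 higher, and *Ly6c2*, *Chil3* and *F10* were at 0 in every control. The 6 dendritic cell markers summed to 634 to 1361 and 1827 to 4327, with 4 of 6 higher. T and NK cell markers reached at most 27.3 in control and 20.1 in laser samples, and 5 photoreceptor markers ranged from 583 to 5838 and from 486 to 10996. The part of these cells in the class I differences was not tested, and more cells of a type cannot be told apart from more RNA per cell in bulk samples. With all samples thinned to the reads of the shallowest, *Tap1* and *H2-K1* were called higher (2 of 10), and *H2-D1* (padj = 0.0829), *Psmb9* (padj = 0.0813) and *Nlrc5* (padj = 0.1) were not.

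Of the class I heavy chains, *H2-K1* and *H2-D1* encode the classical chains of the b haplotype, which bind the peptides shown to CD8+ T cells. *H2-K1* measured 19636, 22053 and 25768 normalized counts (lowest, median and highest) in control and 24903, 28983 and 30903 in laser samples. A single laser sample, replicate 3, fell within the control range. The difference was small and passed the test (fold 1.29, 95% confidence interval 1.15 to 1.44, log2FC = 0.36 ± 0.08 SE, padj = 0.00494), with p = 0.00433 in a two-sided exact permutation test. *H2-D1* measured 37266, 43316 and 51201 in control and 42482, 56531 and 61921 in laser samples. Here 5 of 6 laser samples lay above the highest control, and again laser replicate 3 was the low one. The fold was 1.24 (1.07 to 1.43, log2FC = 0.31 ± 0.10 SE, padj = 0.0477, exact permutation p = 0.0195). This call was near the threshold: it was lost on leaving out any library other than control replicate 3 or laser replicate 3, with padj from 0.0147 to 0.131 over the 12 fits that each left out 1 sample. *H2-K1* remained called in all 12.

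The non-classical chain *H2-T23*, the mouse Qa-1 that presents leader peptides to NK cell receptors, was not higher. It measured 6265, 7479 and 12324 in control and 5747, 7013 and 8290 in laser samples (log2FC = -0.21, 95% confidence interval -0.55 to 0.13, padj = 0.455, exact permutation p = 0.294). The laser samples lay in and just below the lower part of the control range, and control replicates 1 and 3, at 10201 and 12324, were above every laser sample.

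*B2m*, the light chain shared by all class I molecules, was by far the most abundant member. It measured 83438, 97585 and 124332 in control and 101296, 108632 and 138473 in laser samples. The groups overlapped, and the difference did not pass the test (log2FC = 0.18, 95% confidence interval -0.03 to 0.38, padj = 0.279, exact permutation p = 0.121). Levels can be compared between genes only per length, here normalized counts per kilobase of exon. On that scale *B2m* averaged 115695 in control samples, *H2-D1* 17180 and *H2-K1* 7575, and their ranges did not touch. *Tapbp* followed at 4039 and *H2-T23* at 2889, which overlapped each other. Below them came *Psmb8* (972.1), *Tap2* (793.4), *Tap1* (499.3) and *Psmb9* (413.7), each overlapping the next. *Nlrc5* stood apart at the bottom with 31.2. In laser samples the order was the same except for *Tap1* (879.5), which moved above *Tap2* (685.6), although their ranges still overlapped. The lengths join the exons of all annotated transcripts of a gene (3660 bases for *Psmb9* and 3381 for *Psmb8*). Close places in the order may therefore depend on the annotation.

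The promoters of *H2-K1*, *H2-D1* and *B2m* are shown because TGACG is followed by ATTGG at the same distance in all 3, each with an interferon-response-like and a kB-like word further from the start. Class I promoters are known to carry an interferon-stimulated response element, a kB site, and an SXY module in which a CRE-like X2 box is followed by an inverted CCAAT (Y) box. The lines give the 250 bases before the RefSeq start on GRCm38.p6, 5′ to 3′ on the gene's strand, at chr17:34000348-34000597 (minus strand, *H2-K1*), chr17:35262844-35263093 (plus, *H2-D1*) and chr2:122147437-122147686 (plus, *B2m*). Capitals mark the words found, on either strand:
H2-K1: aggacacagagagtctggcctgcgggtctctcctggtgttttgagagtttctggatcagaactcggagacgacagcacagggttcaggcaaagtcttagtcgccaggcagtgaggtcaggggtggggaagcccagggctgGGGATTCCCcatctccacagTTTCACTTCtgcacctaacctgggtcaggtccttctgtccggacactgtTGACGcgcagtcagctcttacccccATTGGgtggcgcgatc
H2-D1: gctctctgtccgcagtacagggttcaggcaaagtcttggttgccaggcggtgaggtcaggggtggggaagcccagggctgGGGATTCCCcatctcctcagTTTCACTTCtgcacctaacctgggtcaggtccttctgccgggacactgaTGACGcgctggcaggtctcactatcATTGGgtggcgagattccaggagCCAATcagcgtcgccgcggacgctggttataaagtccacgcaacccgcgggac
B2m: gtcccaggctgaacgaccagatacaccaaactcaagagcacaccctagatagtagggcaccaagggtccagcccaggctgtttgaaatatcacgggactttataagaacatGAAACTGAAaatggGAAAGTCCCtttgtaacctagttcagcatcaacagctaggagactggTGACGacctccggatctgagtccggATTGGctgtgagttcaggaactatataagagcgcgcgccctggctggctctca

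In *H2-K1* and *H2-D1* the capitals are, in order, GGGATTCCC (a kB-like word), GAANNGAAA (an interferon-response-like word, read on the other strand), TGACG (CRE-like) and ATTGG (inverted CCAAT), and *H2-D1* has a further ATTGG on the other strand. In *B2m* they are GAAANNGAA, GGGACTTTC on the other strand, TGACG and ATTGG. No words overlapped each other in these promoters. Across 27025 mouse promoters of the same length, both strands searched, 6.34% held GAANNGAAA, 7.16% GAAANNGAA, 0.311% GGGATTCCC, 0.278% GGGACTTTC, 17.9% TGACG and 34.5% ATTGG. The words were chosen after reading these promoters, so that the 3 genes hold them is a description. In all 3 promoters TGACG began exactly 25 bases before ATTGG. Of all 27025 promoters, 25 (0.0925%) held the words at that distance, and at every other distance from 20 to 30 bases between 5 and 16 did. Outside the 3 genes, 19 of the 22 such promoters belonged to genes in the table, of which 2 were called higher and 1 lower. Over all genes 8.29% were called higher and 4.57% lower, so these counts are near that background. *H2-M3*, a further class I heavy chain, was among the 19 and averaged 2473 normalized counts in control and 2412 in laser samples (log2FC = -0.03, padj = 0.84).

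**Figure D2:**
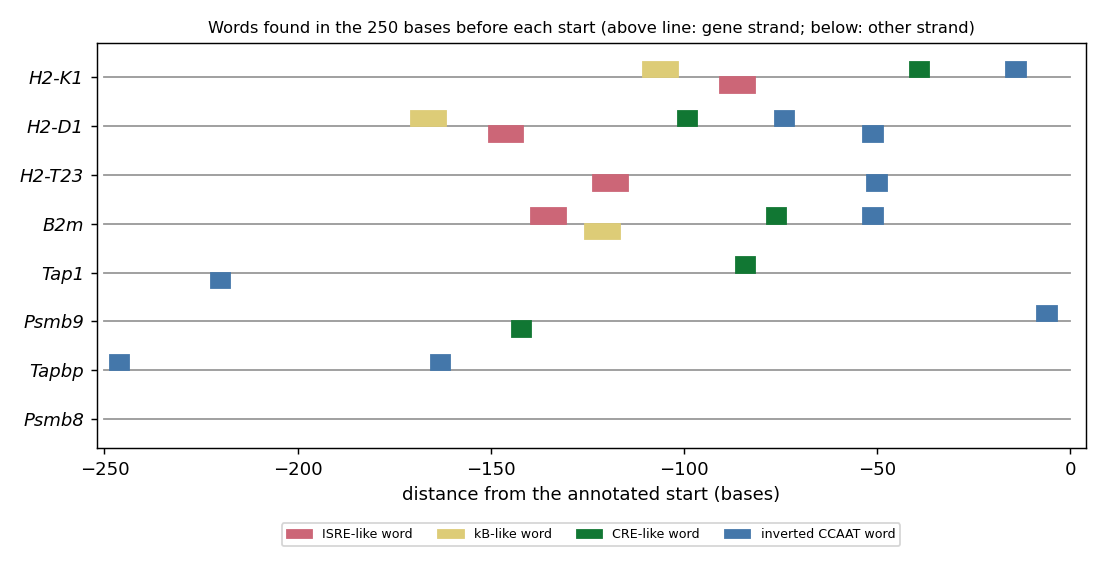
Position of the words in the 250 bases before the start (x axis, bases from the annotated start at 0) of 8 class I genes, boxes above the line being on the gene's strand and below it on the other. *H2-K1*, *H2-D1* and *B2m* each have a CRE-like word 25 bases before an inverted CCAAT word on their own strand. *Psmb8* has none of the words, and *Tap2* and *Nlrc5* had no promoter entry in the table used.

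The subunits of the peptide transporter parted. *Tap1* and *Tap2* encode the subunits of the heterodimer that pumps peptides into the endoplasmic reticulum. *Tap1* measured 1985, 2335 and 4159 in control and 3602, 4807 and 5920 in laser samples. Control replicate 1 and laser replicate 1 were the only samples in the overlap. The fold was 1.80 (1.40 to 2.32, log2FC = 0.85 ± 0.17 SE, padj = 0.00374, exact permutation p = 0.00433), and the call remained in all 12 fits without 1 sample and in all 9 other processing alternatives. *Tap2* measured 2311, 2752 and 4016 in control and 2323, 2651 and 2814 in laser samples (log2FC = -0.18, 95% confidence interval -0.47 to 0.10, padj = 0.428, exact permutation p = 0.255). Its laser values lay inside the control range.

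The ratio of *Tap1* to *Tap2* within a sample needs no size factor, and it separated the groups. The log2 ratio was -0.50, -0.14 and 0.05 (lowest, median and highest) in control and 0.47, 0.93 and 1.07 in laser samples, so all 6 laser samples lay above all 6 controls. Control cells held about as many *Tap1* as *Tap2* reads (ratio 0.899) and laser cells 1.84 times as many, a change of 2.05-fold (log2 difference 1.04; two-sided exact permutation p = 0.00216, the smallest that 6 against 6 samples can give; 0.013 after Benjamini-Hochberg correction over 6 ratios). Control replicates 1 and 3, which had the highest *Tap1* of their group, also had the highest *Tap2* (4016 and 3657), and their log2 ratios of 0.05 and -0.14 lay below every laser sample. The numbers of the samples did not pair them. Matched by number, this ratio had the smallest uncorrected exact p that 6 pairs can give and a corrected p of 0.188.

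*Tap1* lies head to head with *Psmb9*: their RefSeq starts are 225 bases apart on opposite strands of chromosome 17, so a single stretch serves both. It is shown as the 250 bases before the start of *Tap1* (chr17:34187306-34187555, plus strand, GRCm38.p6), with TGACG and, on the other strand, ATTGG in capitals:
Tap1: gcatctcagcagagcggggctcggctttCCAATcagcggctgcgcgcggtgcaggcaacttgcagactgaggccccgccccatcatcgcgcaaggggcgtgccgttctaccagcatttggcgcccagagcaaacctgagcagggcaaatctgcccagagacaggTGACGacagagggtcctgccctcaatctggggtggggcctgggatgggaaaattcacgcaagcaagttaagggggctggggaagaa
None of the interferon-response-like or kB-like words was found in this window. The 2 genes also share exon sequence in the Gencode annotation, where 2.88% of the 50-base stretches of *Tap1* transcripts occur in *Psmb9* transcripts. Reads in shared exons cannot be given to either gene with certainty.

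*Tapbp* encodes tapasin, which bridges TAP and the empty class I molecule. It measured 12779, 13957 and 17676 in control and 11642, 13858 and 15219 in laser samples, with medians close to each other (log2FC = -0.08, 95% confidence interval -0.28 to 0.11, padj = 0.598, exact permutation p = 0.392). Of its 50-base stretches, 20.3% were shared with the overlapping gene *Gm19412*, the highest share with another gene among the 10 members.

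Of the immunoproteasome subunits, *Psmb9* was called higher, near the threshold. *Psmb8* and, outside the set, *Psmb10* (log2FC = 0.24, padj = 0.277) did not pass the test. The confidence intervals of *Psmb9* and *Psmb8* overlapped, and the difference between these genes was not tested. *Psmb9* (LMP2, which takes the place of *Psmb6*) measured 1213, 1404 and 2094 in control and 1689, 2113 and 2583 in laser samples. Control replicate 3 reached into the middle of the laser range. The fold was 1.41 (1.12 to 1.78, log2FC = 0.50 ± 0.16 SE, padj = 0.0477, exact permutation p = 0.0195). This call too was lost when any library other than control replicate 3 or laser replicate 4 was left out (padj from 0.0159 to 0.124). *Psmb8* (LMP7, which takes the place of *Psmb5*) measured 2737, 3083 and 4349 in control and 3146, 3904 and 4279 in laser samples (log2FC = 0.22, 95% confidence interval -0.04 to 0.48, padj = 0.293, exact permutation p = 0.113).

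The exchange of proteasome subunits was read as the ratio of each inducible subunit to the one it replaces. *Psmb9* over *Psmb6* had a log2 ratio of -0.82 ± 0.23 (SD, n = 6) in control and -0.44 ± 0.19 in laser samples, a difference of 0.38 (exact permutation p = 0.0195, corrected 0.0584). *Psmb8* over *Psmb5* went from 2.59 ± 0.14 to 2.79 ± 0.21 (difference 0.20, exact permutation p = 0.0779, corrected 0.156). *Psmb10* over *Psmb7* went from 1.17 ± 0.27 to 1.02 ± 0.25 (difference -0.15, exact permutation p = 0.364, corrected 0.436). None of the 3 exchanges passed the corrected test. *B2m* over the sum of *H2-K1* and *H2-D1* (difference -0.15, exact permutation p = 0.182, corrected 0.273) and *H2-K1* over *H2-D1* (difference 0.05, exact permutation p = 0.548, corrected 0.548) did not pass it either.

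**Figure D3:**
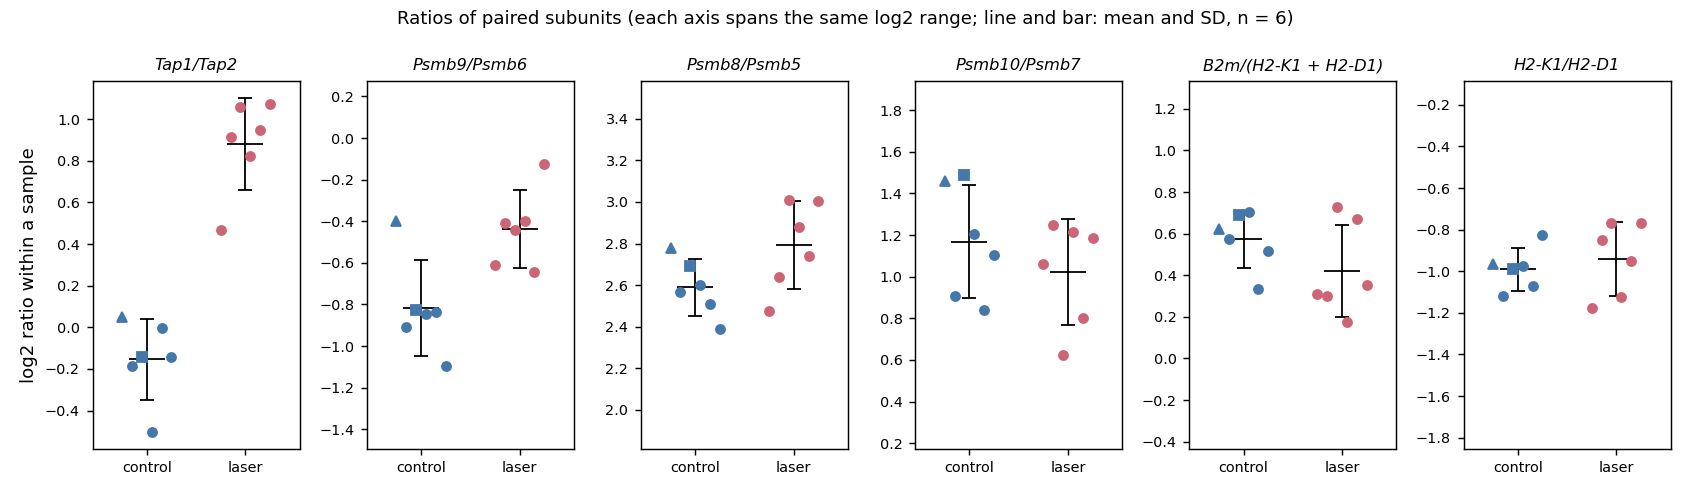
Log2 ratio of 2 genes within each sample (y axes, all spanning the same log2 range) for the 6 ratios, with mean and SD as line and bar and control replicates 1 and 3 as triangle and square. For *Tap1*/*Tap2* the groups do not overlap, from -0.50 to 0.05 in control and from 0.47 to 1.07 in laser samples, and they overlap for the other 5 ratios.

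*Nlrc5*, the class I coactivator, had the largest fold and the widest spread of the 10 genes. It measured 83, 214 and 499 in control and 306, 566 and 1003 in laser samples. In control, replicates 3 and 4 stood at 499 and 466 and the other samples at 83 to 230, so the lower part of the laser range overlapped the upper part of the control range. The fold was 2.60 with an interval of 1.39 to 4.87 (log2FC = 1.38 ± 0.42 SE, padj = 0.0445, exact permutation p = 0.0216). The call remained without control replicate 3 or 4 and was lost without any other library (padj from 0.0313 to 0.15), and edgeR gave padj = 0.0572 and DESeq2 0.0237. Without control replicate 3 the log2FC was 1.62, past the study's fold threshold.

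The class I genes varied among unlasered samples, and largely in the same libraries. The SD of the log2 level was larger in control than in laser samples for 9 of the 10 genes, a difference in spread that was not tested. Control replicate 3 was the highest of its group for 8 genes and control replicate 1 for the other 2, and they were the 2 highest controls for 6 genes. In the lists of regulators and interferon input, *Stat2*, *Irf1*, *Tyk2*, *Socs1* and *Ifnb1* also had these 2 samples as their highest controls. *Stat2*, which carries type I interferon signals to the nucleus, measured 2596 and 2564 normalized counts in control replicates 3 and 1 and 751 to 1111 in the other controls. *Ifnb1*, encoding interferon beta, measured 446 and 40.8 in these samples and was at 0 in the other 4 controls. In laser samples it ranged from 0 to 23.6. Many other genes of the lists did not follow this pattern. Control replicates 1 and 3 were the 2 highest controls for 10 of 36 other pathway genes with a mean of at least 100, and *Jak2* (455) and *Irf2* (2716) were lowest in control replicate 3. Some marker lists of other cells were also highest in these libraries, and others were not. The 5 border macrophage markers summed to 1663 and 706 in control replicates 3 and 1 and to 35.7 to 379 in the other controls, the monocyte markers to 293 and 183 against 35.1 to 113, and the photoreceptor markers were highest of the controls in replicate 3 (5838). The photoreceptor markers were lowest of the controls in replicate 1 (583). The endothelial markers were lowest of the controls in replicates 1 and 3 (500 and 524), and the dendritic cell markers were highest in replicate 2 (1361). The part of these cells in the class I levels was not tested. Laser replicate 6 was the highest of its group for 6 class I genes and replicate 3 the lowest for 5. Without control replicate 3, 5 class I genes were again called higher, with log2FC of 0.92 for *Tap1*, 0.41 for *H2-K1*, 0.35 for *H2-D1* and 0.60 for *Psmb9*. Without control replicate 1, 2 were (*Tap1* and *H2-K1*).

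**Figure D4:**
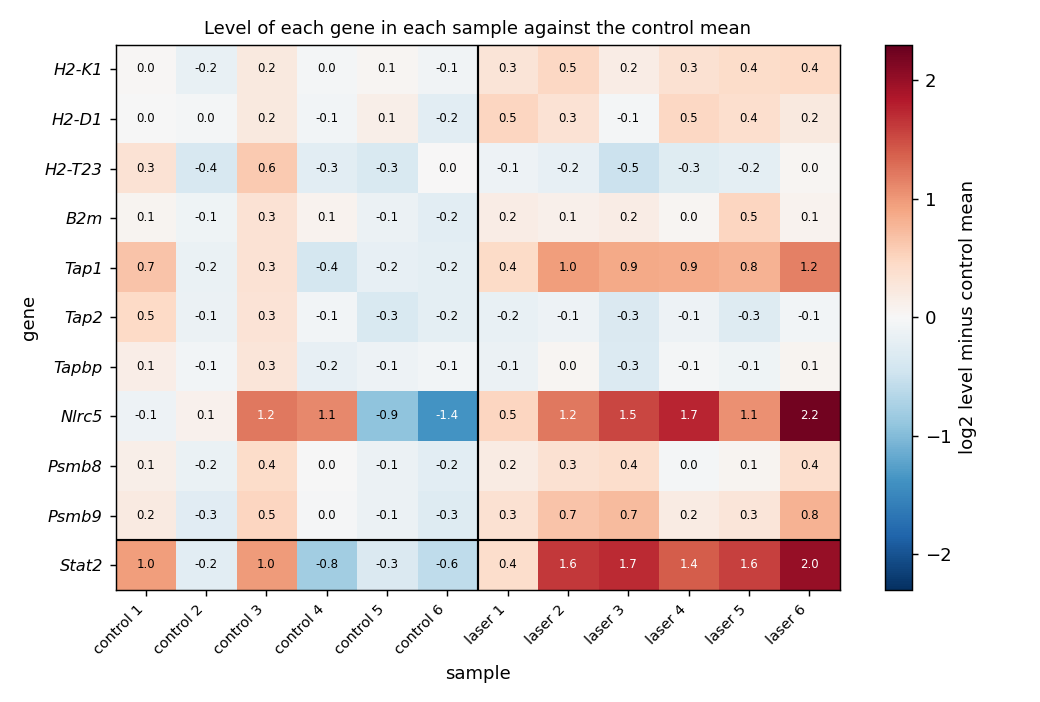
Log2(normalized count + 1) of each class I gene, and of *Stat2*, in each sample minus the mean of the control samples (colour and printed value). Control replicates 1 and 3 are above the control mean for *H2-T23*, *Tap1*, *Tap2* and *Stat2*, whereas laser samples are above it for *Tap1*, *Nlrc5* and *Stat2* and near or below it for *H2-T23* and *Tap2*.

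The genes whose levels went most with the class I set were found from deviations from the group mean, over 12 samples and 9703 genes with a mean of at least 100 normalized counts. Likeness is the mean Pearson r with the 10 class I genes, which had a median of 0.01 over all genes compared. *Lgals3bp* was first (0.71), followed by *Tor3a* (0.70), *Fcgr1* (0.69), *Xaf1* (0.69) and *Entpd7* (0.68). *Lgals3bp*, a secreted glycoprotein that binds galectins, was higher after laser (17729 and 31927 normalized counts, log2FC = 0.92, padj = 0.00372), as was *Xaf1* (892 and 1623, log2FC = 1.06, padj = 0.0336). The Fc receptor *Fcgr1* did not pass the test (14147 and 14088, log2FC = 0.05, padj = 0.841). Within the set, the mean r of a gene with the other 9 ran from 0.25 for *H2-D1* to 0.60 for *H2-T23* and *Tap2*. These correlations share the libraries and their size factors and are given as a description.

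The rest of the class I pathway was described with 5 lists of 47 genes, of which 46 were in the table. Of these, 15 were called higher and 3 lower, and their median log2FC was 0.23. Over all genes 8.29% were called higher and 4.57% lower, and among the 6608 genes with a mean at least that of *Nlrc5* 18.1% and 12.5% were, so a count of 1 or 2 in a list of 6 to 9 genes is near that background. Among 15 heavy chains outside the set, 4 were higher and 0 lower by limma. *H2-Q4* measured 19.9 to 73.3 in control and 123 to 183 in laser samples without overlap (log2FC = 1.95, padj = 0.00351). *H2-T22* averaged 390 and 808 (log2FC = 1.06, padj = 0.00546) and *H2-Q7* 475 and 804 (log2FC = 0.79, padj = 0.0121). *H2-T10* was at 0 in 4 of 6 controls, at 17.2 in control replicate 1, and measured 12.1 to 64.9 in laser samples (padj = 0.00802, but 0.113 with edgeR). Counts of these chains are uncertain, because 53.5% of the 50-base stretches of *H2-T22*, 50.4% of *H2-T10*, 36.4% of *H2-Q4* and 26.5% of *H2-Q7* occur in transcripts of other genes, beside 9.63% of *H2-K1*, 12.8% of *H2-D1* and 0% of *B2m*. *H2-M2* was at 0 in all 6 controls and in laser replicates 2 and 6, and measured 269 in laser replicate 1 (padj = 0.0963). A count of 0 allows up to 3 reads, which in control samples is 3.01 to 5.96 normalized counts.

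In the endoplasmic reticulum list, 2 of 6 genes were higher and 0 lower. *Calr*, the chaperone calreticulin of the loading complex, measured 17047 to 20698 in control and 24220 to 30840 in laser samples, with no overlap (log2FC = 0.44 ± 0.07 SE, padj = 0.001). *Pdia3*, the disulfide isomerase ERp57 of the same complex, averaged 42790 and 48572 (log2FC = 0.18, padj = 0.0434), a call lost without control replicate 1, 2, 4 or 6 or laser replicate 5 (padj up to 0.0643). The trimming peptidase *Erap1* did not pass the test (log2FC = 0.08, padj = 0.717).

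In the proteasome list, 4 of 8 genes were higher and 0 lower, and none of the 4 is a catalytic subunit. *Psme1* and *Psme2* encode the PA28 alpha and beta caps, which open the proteasome and favour class I peptides. *Psme1* measured 2584 to 4488 in control and 4969 to 6579 in laser samples without overlap (log2FC = 0.75 ± 0.12 SE, padj = 0.000954). *Psme2* averaged 3151 and 4699 (log2FC = 0.61, padj = 0.0235), a call that remained without control replicate 3 or 4 or laser replicate 4 or 5 and was lost without any other library (padj up to 0.0869). *Psme3*, the PA28 gamma cap of the nucleus, measured 1298 to 2209 and 2388 to 3100 (log2FC = 0.65, padj = 0.00259). *Pomp*, the proteasome assembly chaperone, averaged 3901 and 5250 (log2FC = 0.43, padj = 0.00898). The constitutive subunits *Psmb5* (log2FC = 0.02, padj = 0.943), *Psmb6* (log2FC = 0.12, padj = 0.599) and *Psmb7* (log2FC = 0.39, padj = 0.0846) did not pass the test. For *Psmb7*, 5 laser samples lay above every control.

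Of 8 regulators, 2 were higher and 1 lower. *Stat2* measured 751, 1076 and 2596 in control and 1732, 3958 and 5282 in laser samples (log2FC = 1.45 ± 0.33 SE, padj = 0.00881), and without laser replicate 6 padj was 0.053. *Ciita*, the coactivator of class II genes, was at 0 in 4 of 6 controls and reached 9.03 in the others. It measured 1.48 to 418 in laser samples (padj = 0.00922). Laser replicates 3 and 6, highest for *Ciita* at 403 and 418, also had the highest sums of dendritic cell markers (4327 and 3614) and of monocyte markers (2669 and 2245), and the part of such cells in it was not tested. *Irf2*, a competitor of IRF1 at interferon-response elements that can also act on class I promoters, was lower in every laser sample (2716 to 4239 and 1689 to 2135, log2FC = -0.72 ± 0.12 SE, padj = 0.000776). *Irf1* (log2FC = -0.31, padj = 0.16) and *Rfx5* (log2FC = -0.49, padj = 0.114) did not pass the test.

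Among 9 measured genes of interferon input, 3 were higher and 2 lower, and the chains of a receptor went in opposite directions. The type I receptor chain *Ifnar1* averaged 2930 and 4092 (log2FC = 0.48, padj = 0.0453) and its partner *Ifnar2* 7243 and 5583 (log2FC = -0.38, padj = 0.0267). The interferon gamma receptor chain *Ifngr1* averaged 32898 and 23979 (log2FC = -0.48, padj = 0.0211), while *Ifngr2* did not pass the test (log2FC = 0.05, padj = 0.734). The receptor kinases *Tyk2* (1095 and 1714, log2FC = 0.67, padj = 0.00781) and *Jak2* (880 and 1490, log2FC = 0.82, padj = 0.0161) were higher. In the fits that each left out 1 sample, the log2FC of these genes kept its sign. It ran from 0.41 to 0.58 for *Ifnar1*, from -0.56 to -0.40 for *Ifngr1*, from -0.44 to -0.32 for *Ifnar2* and from 0.64 to 0.91 for *Jak2*. Several of the calls were lost in some of these fits. That of *Ifnar1* was lost without any library but control replicate 2 or laser replicate 3 (padj up to 0.131), and that of *Ifngr1* without any but control replicate 1 or 3 or laser replicate 1 or 4 (padj up to 0.0872). That of *Ifnar2* was lost without control replicate 4 or 6 or laser replicate 3, 5 or 6 (padj up to 0.0719), and that of *Jak2* without laser replicate 3, 4, 5 or 6 (padj up to 0.0614).

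**Figure D5:**
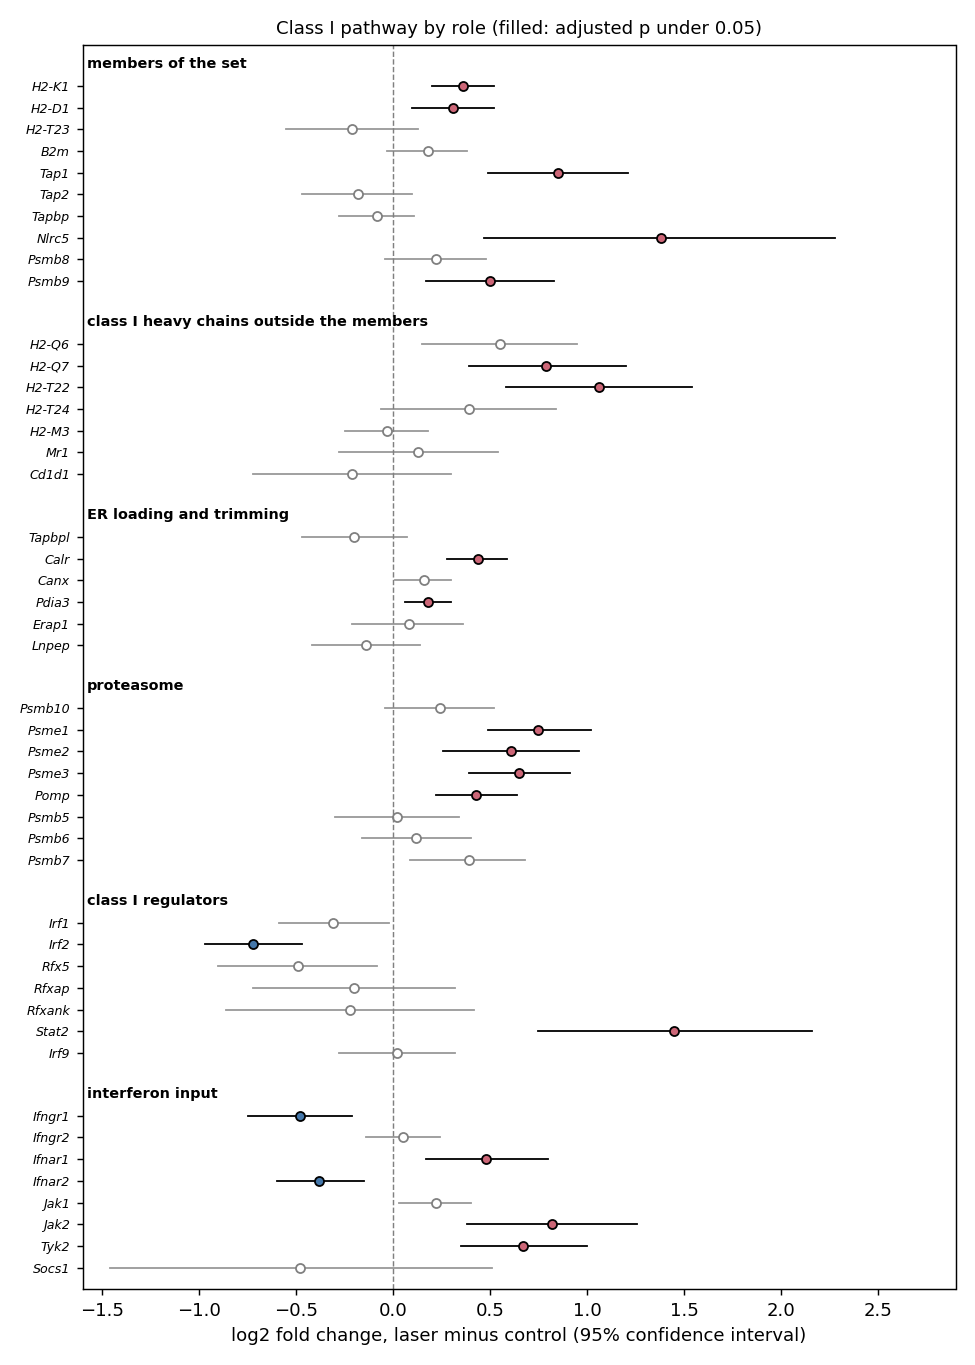
Log2 fold change, laser minus control (x axis), with its 95% confidence interval for the 10 class I genes and for pathway genes with a mean of at least 100 normalized counts, grouped by role, where filled points passed padj below 0.05 (red higher, blue lower). *Tap1*, *Nlrc5*, the PA28 genes and *Stat2* lie to the right of 0, *Irf2*, *Ifngr1* and *Ifnar2* to the left, and *Tapbp*, *Tap2* and *H2-T23* span 0.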

How the data were processed

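The authors mapped single-end reads of 50 cycles to the mouse genome (GRCm38.p6, Gencode) with STAR 2.7.2b, merged the runs of a sample, counted reads per gene with featureCounts 1.6.4 and divided them by DESeq2 1.22.2 size factors. The deposited values are these normalized counts (a signal scale, not raw counts), and the authors' mean, fold change and p-value columns were not used. Per the labels 7 samples had been run in 2 parts, which the authors merged. These were all 6 controls and, of the laser samples, replicate 4 alone. By the labels the number of parts thus nearly followed the group. The study's methods instead describe 2 merged files for every sample, from separate flow cells. The part of the runs in the differences was not tested. Dividing by the smallest value of each column gave whole reads for 100% of values (tolerance 0.01).

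The main test was limma 3.58.1 (R 4.3.3) on log2(value + 1), with a mean-variance trend and no filter. Members were also compared by two-sided exact permutation. Alternatives were edgeR 4.0.16 and DESeq2 1.42.0 on the recovered reads, other pseudocounts (0.1 and 10), a filter (10 in at least 6 samples), no trend, TMM factors, thinning to the shallowest sample, a replicate block and leaving out each sample. The scripts were tested on simulated data. Named were all members, list genes that passed the test, and the 5 genes most like the members; list genes named without passing were chosen after their values were seen. The members and lists were chosen with earlier results of these data known. The promoter words, their spacing, the search for shared 50-base stretches (Gencode M21 transcripts) and the comparison with genes of like level were chosen after the data had been seen. Promoters are RefSeq's (GRCm38.p6), matched by symbol for 8 of 10 members, the first entry where a gene had several. Reads carried no molecular identifiers, so they are not independent molecules. Some genes of the marker and pathway lists are not reported here and enter no sum or count.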

Additional observations from a re-analysis of the deposited data

Results flagged for a closer look

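*B2m* in laser replicate 5 measured 138473 normalized counts, far from the other 5 laser samples, which lay between 101296 and 111449. Its gap to the nearest sample was 0.727 of the group's range, above Dixon's 95% critical value for 6 samples. Among 32 groups of values looked at this was the only such sample, and chance flags about 1 in 20 groups.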

How the results depend on the processing

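The number of class I genes called higher, 5 of 10, was the least stable count. It was 4 with edgeR, 5 with DESeq2, 2 with a pseudocount of 10, 1 without the mean-variance trend, 2 after thinning to the shallowest sample and 3 with the replicate block, and ran from 2 to 5 when a sample was left out (2 without control replicate 1, 2, 5 or 6 or laser replicate 1, 2, 5 or 6, and 3 without control replicate 4 or laser replicate 3 or 4). *Tap1* was called in all 21 fits and *H2-K1* in all but the fit without the trend (padj = 0.0809). *H2-D1*, *Nlrc5* and *Psmb9* were each called in 5 of the 9 alternatives that kept all samples and in 2 of the 12 that did not. Without control replicate 3 or 4 the number passing the study's fold threshold was 1 (from 0 to 1 over the fits without 1 sample). No class I gene was called lower in any fit. The pathway genes called higher, 15, ran from 11 to 18. Those called lower, 3, were 1 without the trend and from 1 to 4 without 1 sample. Over all genes, those called lower were 2170 with DESeq2 in place of 1247, and those passing the fold threshold upward were 600 with a pseudocount of 10 in place of 1068. The cause was not tested. The ratio of *Tap1* to *Tap2* had a corrected p of 0.013 or less in all 12 fits without 1 sample. Leaving out 1 sample gave log2 differences of 0.16 to 0.27 for *Psmb8*/*Psmb5*, which passed without laser replicate 1 (corrected exact p = 0.039), and of 0.32 to 0.46 for *Psmb9*/*Psmb6*, which passed without control replicate 1 (corrected exact p = 0.00649) or laser replicate 1 (corrected exact p = 0.039). Samples with the same number shared only a number: their deviations correlated between -0.0526 and 0.0707, and 1 of 6 was best matched to its own number. Matched by number, the *Tap1*/*Tap2* difference was again 1.036, with a corrected exact p of 0.188. Its uncorrected exact p was the smallest that 6 pairs can give.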
